A study of Mus musculus with 36 samples.

Results

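Apob and 5 genes whose products assemble or export very low density lipoprotein (VLDL) were followed across the livers of 36 female mice. The genes were Apob, Mttp, Apobec1, Tm6sf2, Sar1b and Sort1, 6 of the 18193 that the platform table names. Every probe set that the platform table assigned to one of these symbols was taken, which gave 10 probe sets of the 45037 that are no array controls: 2 for Apob, 2 for Mttp, 3 for Sort1 and 1 for each of the others. All 10 passed the filter on low signal, as did 25941 probe sets in all. RNA from 1 liver was hybridised to each Affymetrix array, and there were 4 mice in each of 9 groups.

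The study compared mouse lines that develop neural tube defects with their controls, in females 6 to 8 weeks old that had been fasted for 4 to 5 hours. The Apob group was heterozygous for Apobtm1Unc, a targeted allele of Apob known to encode a truncated protein, and the Pax3 group was heterozygous for Pax3Sp2H, a mutation of a transcription factor. Wild type C57BL/6J mice, called B6 here, were the control of both. Heterozygotes of the Lrp6Cd line (Cd-Het) were set against wild type mice of that line (Cd-WT), and heterozygotes of the Vangl2Lp line (Lp-Het) against wild type mice of that line (Lp-WT). The ct mice (Ct) came from a random-bred closed colony, were all taken to be ct/ct homozygotes, and were set against wild type CBA/CaJ mice (CBA), so that comparison spans different stocks. In its response to dietary FA, as the labels write it, each of Pax3Sp2H and Lrp6Cd is marked responsive, and each of Apobtm1Unc, ct and Vangl2Lp resistant. The labels do not say whether the B6 mice were littermates of the Apob or Pax3 heterozygotes, nor where the Apobtm1Unc change lies relative to the Apob probes, so an Apob signal here does not tell which allele it came from.

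Apolipoprotein B is the large structural protein of VLDL, and each particle carries a single copy of it. In hepatocytes it is lipidated while it enters the endoplasmic reticulum, by the microsomal triglyceride transfer protein that Mttp encodes, and it is degraded where lipidation fails. The particle then leaves in vesicles coated with COPII and matures in the Golgi. Apobec1 encodes the cytidine deaminase that edits Apob mRNA to make the short form of the protein, which in the mouse happens in the liver as well as in the gut.

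The Apob gene lies on chromosome 12, Mttp and Sort1 on 3, Apobec1 on 6, Tm6sf2 on 8 and Sar1b on 11, per the RefSeq gene table of the mouse. Signals are linear MAS5 intensities, and a probe set's level cannot be set against that of another. Tests were run on log2 of the signal plus an offset of 23.1, with limma across all tested probe sets, and "called" means a Benjamini-Hochberg adjusted p below 0.05. A log2 difference is the first group named minus the second, ± its standard error from that model.

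Libraries that stood apart were CBA replicate 4 and Ct replicate 3. For GAPDH, the control signal near the 3' end over that near the 5' end, a measure of RNA integrity, stood at 52.5 for CBA replicate 4 and at 1.72 for Ct replicate 3, against 0.73 to 0.96 on the other 34 arrays. The same ratio for pyruvate carboxylase lay between 2.99 and 5.21 on the Apob arrays, against 6.65 to 11.1 on the Pax3 arrays and 5.99 to 26.6 on the B6 arrays. Its part in the Apob results was not tested. The tissue carried the markers of hepatocytes. Their summed signal over 5 tested genes was 227508 to 271403 in the Apob group, 182000 to 225167 in the Pax3 group and 255245 to 281758 in the B6 group. No marker list of hepatocytes, Kupffer cells, stellate, endothelial, bile duct, gut or lymphoid cells had a called member in the Apob group against B6 or Pax3 in the fit to all 36 arrays. In the fit without the 2 arrays, 1 of 4 tested enterocyte markers was called lower than in B6 and 1 of 8 Kupffer cell markers higher than in Pax3. Of all probe sets in that fit, 1.46% were called lower against B6 and 1.68% higher against Pax3. Of the 2 tested erythroid markers, Alas2, the first enzyme of haem synthesis in red cell precursors, was called higher in the Apob group than in the Pax3 group, by 1.28 ± 0.28 (limma adjusted p = 0.0136). Slc4a1, the anion exchanger of red cells, was not. Of all genes, 0.538% were called higher in that comparison. No marker was listed at 0.

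Apob signal was lower in Apob heterozygotes than in either B6 mice or Pax3 heterozygotes on both of its probe sets. On 1455593_at the Apob mice gave 2654, 11144, 5339 and 12260.2, the Pax3 mice 22691, 25703, 23134 and 27153, and the B6 mice 25684, 27268, 25069.9 and 17299. Every Apob mouse lay below every mouse of the other two groups. The lowest Apob mouse was replicate 1 and the next was replicate 3, while B6 replicate 4 was the lowest of its group and still above all 4 Apob mice. The difference was -1.82 ± 0.42 against B6 (limma adjusted p = 0.0287), which is 3.53-fold lower, and -1.89 ± 0.42 against Pax3 (limma adjusted p = 0.0154), which is 3.70-fold lower. In bulk liver, fewer cells of a type and less RNA per cell cannot be told apart.

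The other probe set, 1457554_at, gave 117, 382, 229 and 501 in the Apob mice, 1448, 1695, 1741 and 1648 in the Pax3 mice, and 1826, 3149, 1862 and 550.2 in the B6 mice. Again no Apob mouse reached the lowest mouse of the other two groups, although Apob replicate 4 and B6 replicate 4 were close. The difference was -2.43 ± 0.59 against B6 (limma adjusted p = 0.0361) and -2.49 ± 0.59 against Pax3 (limma adjusted p = 0.0203). Both Apob probe sets were called lower in each comparison, where 0.806% of all 25941 probe sets were called against B6 and 1.85% against Pax3. Groups that did not overlap, with the Apob group lower, were found for 4.75% of the tested probe sets against B6 and for 7.01% against Pax3.

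**Figure D1:**
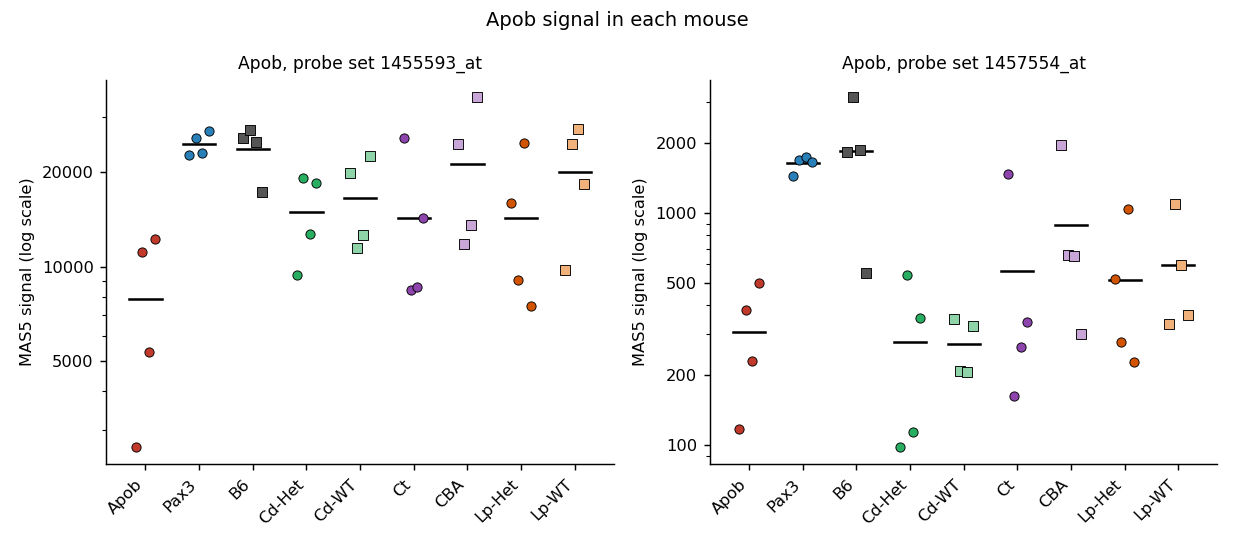
MAS5 signal of the Apob probe sets (log axis) in each mouse, by group, with circles for mutant groups, squares for wild type groups and a bar at the mean of 4 mice. The 4 Apob heterozygotes lie below all 8 Pax3 and B6 mice in both panels, and Cd-Het and Cd-WT mice are as low as Apob heterozygotes on 1457554_at only.

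Leaving out the 2 arrays of poor GAPDH ratio cannot change the size of these differences, as neither array is in the groups compared. It changes only the shared estimate of spread, and gave limma adjusted p of 0.0107 and 0.0159 against B6. In that fit 3.03% of all probe sets were called against B6. Leaving out single mice mattered more. Without Apob replicate 1, the difference on 1455593_at was -1.38 against B6 (limma adjusted p = 0.164) and -1.45 against Pax3 (limma adjusted p = 0.0927), and neither was called. Without Apob replicate 3 it was -1.71 (limma adjusted p = 0.115) and -1.78 (limma adjusted p = 0.0639). The call against B6 was also lost without B6 replicates 1, 2 or 3, each left out in turn, at -1.79 to -1.75 (smallest limma adjusted p = 0.0742). On 1457554_at the call against B6 was lost without B6 replicates 1, 2 or 3 or Apob replicates 1, 2 or 3, at -2.58 to -2.07, and the call against Pax3 without Pax3 replicates 2, 3 or 4 or Apob replicates 1 or 3, at -2.48 to -2.13.

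The Pax3 heterozygotes themselves did not differ detectably from B6 on either probe set, at 0.07 ± 0.42 and 0.06 ± 0.59, and 0% of all probe sets were called in that comparison (1276 at an unadjusted p below 0.05). Both of these comparisons use the same B6 mice. A moderated F test of differences among the 5 mutant minus control effects did not call Apob, with limma adjusted p of 0.0622 on 1455593_at and 0.0796 on 1457554_at, where 2.44% of probe sets were called. With array weights both were called (limma adjusted p = 0.00882 and 0.0132), and 1455593_at also without the 2 arrays of poor GAPDH ratio (limma adjusted p = 0.0323). More was called over the whole array in these settings: 2637 of 25941 probe sets with array weights and 4.01% without the 2 arrays.

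Over the 9 groups, the mean of 1455593_at was highest in Pax3 mice at 24670.1 ± 2122 and lowest in Apob mice at 7849 ± 4604 (SD, n = 4 each). Between them came B6 at 23830.1 ± 4452, CBA at 21227 ± 10694, Lp-WT at 20067 ± 7869, Cd-WT at 16626 ± 5437, Cd-Het at 14928 ± 4722, Ct at 14316 ± 8169.7 and Lp-Het at 14322 ± 7883, in the order of their mean log2 values. Each group overlapped the next in that order, so neighbours did not separate. Mice of a group differed widely on this probe set: Ct ran between 8443 and 25864, Lp-Het between 7501 and 24766, and CBA between 11798 and 34807, the last being CBA replicate 4.

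On 1457554_at the order was another below the top. Pax3 mice averaged 1633 ± 129 and B6 mice 1847 ± 1061 (SD, n = 4 each), with Pax3 first by mean log2. CBA at 891 ± 730.5, Lp-WT at 597 ± 353, Lp-Het at 515 ± 370.2 and Ct at 560.2 ± 614 came next. Apob mice, at 307 ± 169, came before the last 2 of the 9 groups, Cd-WT at 273 ± 75.6 and Cd-Het at 277 ± 211. Neighbours in this order overlapped as well, so Apob heterozygotes were the lowest group on one Apob probe set and not on the other.

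None of the other lines had a called Apob difference on either probe set. On 1455593_at the difference was -0.16 ± 0.42 for Cd-Het minus Cd-WT, -0.59 ± 0.42 for Ct minus CBA and -0.54 ± 0.42 for Lp-Het minus Lp-WT. On 1457554_at the same differences were -0.24 ± 0.59, -0.83 ± 0.59 and -0.29 ± 0.59. Of all probe sets, 0.00385% were called between the Cd groups, 4.85% between Ct and CBA and 0.0231% between the Lp groups.

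Among wild type stocks, 1457554_at was called different and 1455593_at was not. The Cd-WT mice gave 351, 209, 207 and 325 on 1457554_at, below every B6 mouse, with a difference of -2.46 ± 0.59 (limma adjusted p = 0.00944). Cd-Het mice, of the same line, gave 98.6, 541, 114 and 354, so both groups of this line were as low as the Apob heterozygotes on this probe set. The call was lost without B6 replicate 2, at -2.13 (limma adjusted p = 0.0614). On 1455593_at the same comparison of Cd-WT with B6 gave -0.56 ± 0.42 (limma adjusted p = 0.602), and the Cd-WT mice overlapped the B6 mice. Lp-WT minus B6 was -1.51 ± 0.59 on 1457554_at (limma adjusted p = 0.217), but was called with array weights, at -1.54 ± 0.48 (limma adjusted p = 0.0440). With array weights 1970 of 25941 probe sets were called between these groups, beside 544 without them. CBA minus B6 was -1.11 ± 0.59 (limma adjusted p = 0.268). An F test among the 4 wild type groups called 1457554_at (limma adjusted p = 0.0288) and did not call 1455593_at (limma adjusted p = 0.768), where 10% of all probe sets were called.

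The 2 probe sets mostly ranked the mice of a group alike. In 4 of the 9 groups, Apob among them, they put the 4 mice in the same order, in 7 of 9 they had the same lowest mouse, and 43 of 54 pairs of mice within groups were in the same order. Over deviations from the group means on the 34 arrays, the probe sets correlated at Pearson's r = 0.863 and Spearman's rho = 0.909 (within-group permutation p = 1e-05 for each, the smallest that 100000 resamples can give). These values are 1 of 11 relations computed, with adjusted p of 3.67e-05 and 2.75e-05. Without the 2 arrays farthest from the median, r was 0.875. As both probe sets share an array, its scaling and its RNA, this is no independent repeat of the measurement.

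The difference between the probe sets within a mouse (log2 of 1455593_at minus log2 of 1457554_at) shows where they part. Its absolute size depends on the probes and has no meaning, so only differences between groups are read. It was 4.50 ± 0.23 in Apob mice, 3.90 ± 0.13 in Pax3 mice and 3.89 ± 0.75 in B6 mice (SD, n = 4 each). The Apob group was higher than Pax3 by 0.60, with no overlap (two-sided exact permutation p = 0.0286, the smallest that 4 against 4 can give) and than B6 by 0.61, with overlap (exact permutation p = 0.171). In Cd-WT mice it was 5.79 ± 0.17, or 1.90 above B6 (exact permutation p = 0.0286), and in Cd-Het mice 5.88 ± 0.65. Lp-WT was 1.18 above B6 (exact permutation p = 0.0857) and CBA 0.83 above B6 (exact permutation p = 0.429). That last value was 0.15 without CBA replicate 4 (exact permutation p = 0.857), the mouse with the largest difference of all, at 6.75. The comparisons of wild types were added after the data were seen, and none of the 5 comparisons passed after adjustment over them (smallest adjusted p = 0.0715).

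**Figure D2:**
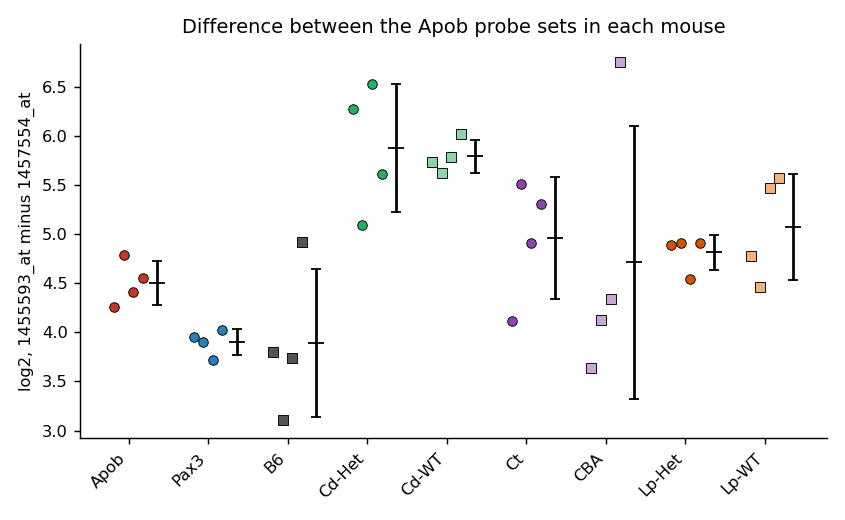
Difference between the log2 values of the Apob probe sets, 1455593_at minus 1457554_at, in each mouse by group, with the mean and SD of 4 mice beside the points. Cd-Het and Cd-WT mice lie between 5.09 and 6.53, above all Apob, Pax3 and B6 mice, and CBA replicate 4 stands alone at 6.75.

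Apob was among the most variable transcripts between mice of a group. The pooled SD of log2 values within groups, over the 34 arrays, was 0.63 on 1455593_at and 0.90 on 1457554_at, above 92.9% and 99.3% of the tested probe sets. The other 8 probe sets lay between 0.23 for Apobec1 and 0.47 for Sort1 1423363_at. Among the 500 probe sets of nearest mean level, 1455593_at was above 98.8%.

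This spread between mice moved with a pattern that ran through the whole array. The first principal component of the deviations from the group means, over the 25931 tested probe sets that are no members and the 34 arrays, held 17.9% of the within-group variance. Its value on each array is called the array-wide score, with its sign set so that Apob correlates positively with it. Over deviations from group means, r between the score and Apob was 0.886 on 1455593_at (rho 0.901, permutation p = 2e-05 and 1e-05, adjusted p = 5.5e-05 and 2.75e-05 over the 11 relations). On 1457554_at it was 0.895 (rho 0.897, permutation p = 1e-05 for each, adjusted p = 3.67e-05 and 2.75e-05). Leaving out the 2 arrays farthest from the median gave 0.889 and 0.874. Among the Apob mice, replicate 1 had the lowest score, -1.68, and the lowest Apob signal, and replicate 4 had the highest score, 1.07, and the highest Apob signal.

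The mean score was -0.06 in Apob mice (from -1.68 to 1.07), 1.04 in Pax3 mice (0.48 to 1.39) and 0.59 in B6 mice (0.19 to 1.14). In a fit to the 34 arrays with the score as a covariate, chosen after the data were seen, Apob was still called lower in Apob mice. The difference from B6 was -1.44 ± 0.20 on 1455593_at (limma adjusted p = 4.4e-05) and -1.89 ± 0.27 on 1457554_at (limma adjusted p = 7.5e-05). From Pax3 it was -1.25 ± 0.21 (limma adjusted p = 0.000447) and -1.58 ± 0.28 (limma adjusted p = 0.000954). On 1455593_at these are 2.72-fold lower than B6 and 2.38-fold lower than Pax3. In this fit 5.97% of all probe sets were called against B6 and 5.1% against Pax3. Cd-WT minus B6 on 1457554_at was -1.91 ± 0.27 in the same fit, where 9.48% of probe sets were called. Lp-WT minus B6 on the same probe set was -1.05 ± 0.27 and was called there (limma adjusted p = 0.0146), where 6.88% of probe sets were called. Cell markers were called in this fit as well. In Apob mice 1 of 6 endothelial markers was higher and 1 of 4 enterocyte markers lower, against B6 and against Pax3 alike, and 1 of 2 erythroid markers was higher in each. Their part in the Apob differences was not tested, nor was what the score measures.

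**Figure D3:**
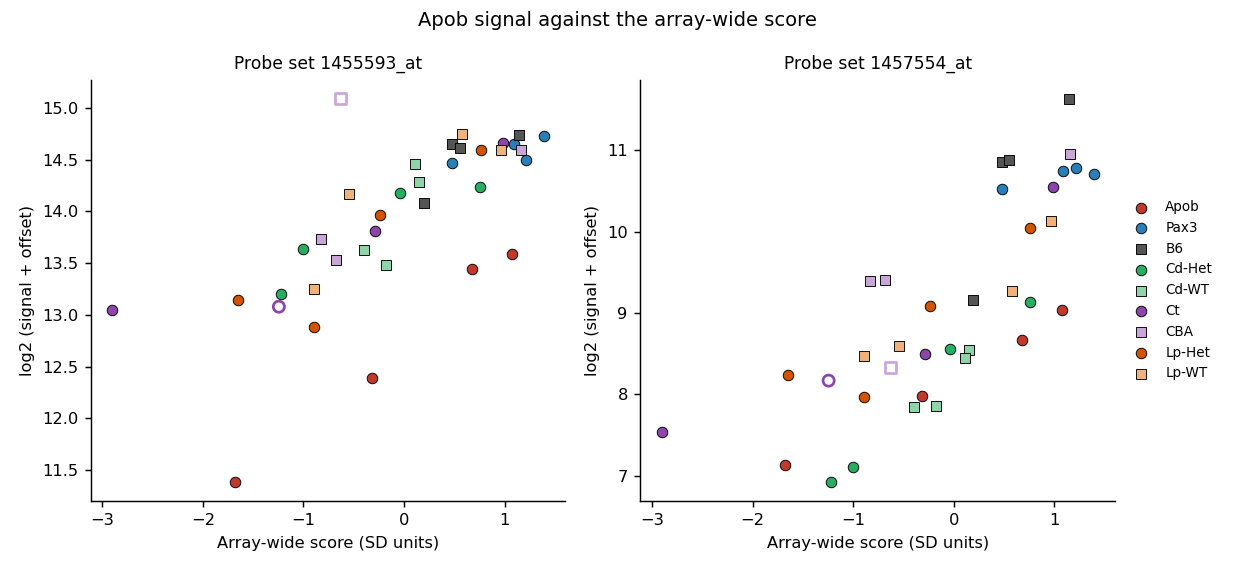
Log2 of the signal plus the offset of each Apob probe set against the array-wide score (SD units), 1 point for each of the 36 mice, with open symbols for CBA replicate 4 and Ct replicate 3, which were left out when the score was derived. Apob signal is higher on arrays of higher score in both panels, and Apob replicate 1, at a score of -1.68, has the lowest 1455593_at signal of all mice.

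None of the 8 probe sets of the other genes was called in Apob heterozygotes. Their differences ran from -0.37 to 0.35 against B6, with a smallest limma adjusted p of 0.725, and from -0.20 to 0.42 against Pax3, with a smallest of 0.440. At an unadjusted p below 0.05 there was 0 of 8 in both comparisons, beside 3163 of 25941 probe sets against B6 and 3991 against Pax3. With the score as a covariate, 0 of 8 were called in either comparison.

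**Figure D4:**
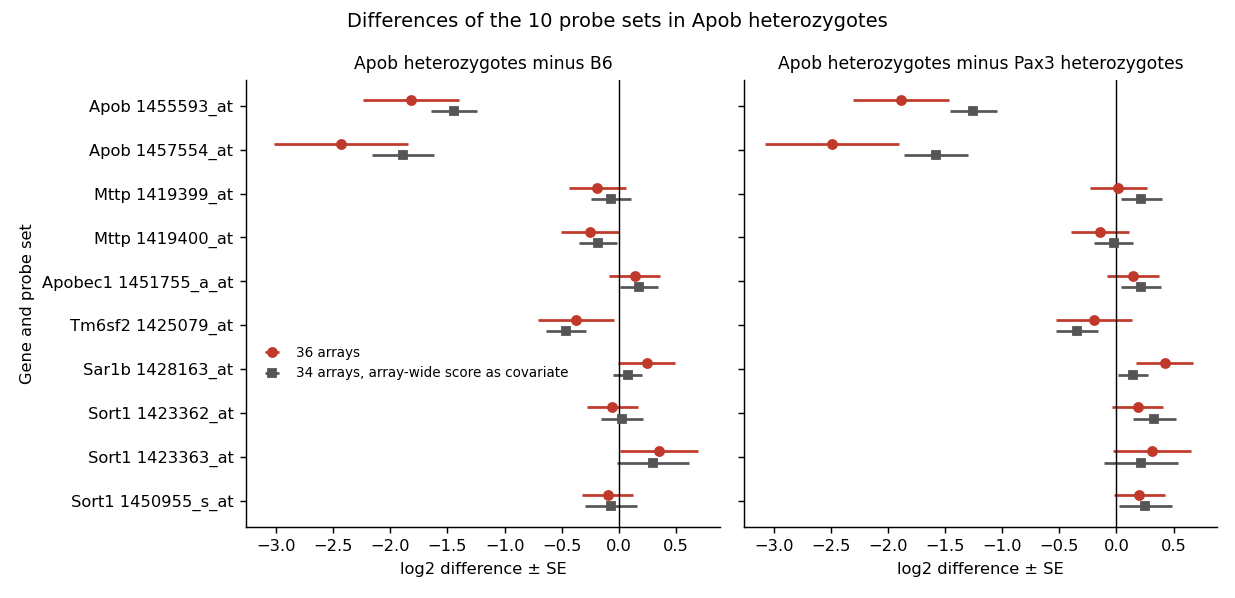
Log2 differences ± SE of the 10 probe sets in Apob heterozygotes, minus B6 (left) and minus Pax3 heterozygotes (right), from the fit to 36 arrays (circles) and from the fit to 34 arrays with the array-wide score as a covariate (squares). The Apob probe sets lie between -2.49 and -1.25, and the other 8 lie between -0.46 and 0.42.

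Mttp encodes the large subunit of the transfer protein that lipidates apolipoprotein B. On 1419399_at its signals were 3009.9, 4905, 3824 and 5578 in the Apob mice, 4594, 4465, 3109 and 4703 in the Pax3 mice, and 5541, 4718, 4527 and 4490.4 in the B6 mice. The groups overlapped, and the difference was 0.02 ± 0.25 from Pax3 and -0.19 ± 0.25 from B6. On 1419400_at the Apob mice averaged 6362 ± 736, the Pax3 mice 7069 ± 1273 and the B6 mice 7551 ± 518 (SD, n = 4 each). Differences were -0.14 ± 0.25 from Pax3 and -0.25 ± 0.25 from B6. Over the 9 groups, mean signal lay between 3459 ± 1158 in Lp-Het and 5575 ± 906 in Cd-Het on 1419399_at, and between 6362 in Apob mice and 10740.1 ± 6019 in CBA mice on 1419400_at. By mean log2, Lp-Het was the lowest group on 1419400_at as well, with Ct and then Apob mice next. Neighbouring groups in the order of mean log2 overlapped on both probe sets, and no comparison of either Mttp probe set was called with all 36 arrays. Without CBA replicate 1, which leaves CBA replicate 4 in, Ct minus CBA on 1419400_at was -0.85 ± 0.27 and was called (limma adjusted p = 0.0495).

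The Mttp probe sets parted on 1 array. CBA replicate 4 had the lowest 1419399_at signal of all 36 mice, 1868, and the highest 1419400_at signal, 19686, against 3883 to 5003 and 6772 to 8757 in the other 3 CBA mice. Ct minus CBA on 1419400_at was -0.67 ± 0.25 with this array and Ct replicate 3 (limma adjusted p = 0.113) and -0.08 ± 0.20 without them. Within groups, 1419399_at moved with the array-wide score at r = 0.586 and rho = 0.607 (permutation p = 0.00372 and 0.00282, adjusted p = 0.00818 and 0.0062), while 1419400_at gave r = 0.402 (adjusted p = 0.0698).

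Apobec1, on 1451755_a_at, varied little between the mice of most groups. The Apob mice gave 293, 447, 410.0 and 465, the Pax3 mice 299, 303, 459 and 391, and the B6 mice 308, 368, 339 and 434. All 3 groups overlapped, with differences of 0.15 ± 0.23 from Pax3 and 0.14 ± 0.23 from B6. The group means lay between 335 ± 57.4 in Cd-Het and 631 ± 367 in Ct, and neighbours overlapped. The highest signal, 1173, was on Ct replicate 3, and its other 35 values were at or below 541. Every CBA mouse, at 443 to 525, was above every B6 mouse, but the difference of 0.41 ± 0.23 was not called (limma adjusted p = 0.296), where 6.61% of all probe sets were called and 11.6% did not overlap between these groups in either direction.

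Tm6sf2, on 1425079_at, encodes a membrane protein of the endoplasmic reticulum and Golgi whose variants in humans are linked to low VLDL secretion. The Apob mice gave 2236, 2078, 1334 and 1129, the Pax3 mice 2204, 1954, 1245 and 2270.2, and the B6 mice 2096, 1829.5, 2422 and 2139.5. Apob replicates 3 and 4 were below all B6 mice, yet the groups overlapped, and the differences were -0.20 ± 0.33 from Pax3 and -0.37 ± 0.33 from B6. Lp-Het had the highest group mean, 3140.0 ± 533, and Apob the lowest, 1694 ± 545, and neighbours between them overlapped. Lp-WT mice gave 2705 to 3365 and lay above every B6 mouse, at 0.51 ± 0.33 (limma adjusted p = 0.575), where 2.1% of all probe sets were called and 11.8% did not overlap in either direction. Without the arrays of poor GAPDH ratio the same difference was 0.51 ± 0.19 (limma adjusted p = 0.141). CBA replicate 4 had the lowest signal of all mice, 434, against 2187 to 3244 in the other CBA mice. Ct minus CBA was called without CBA replicate 3, which leaves that array in, at 1.09 ± 0.33 (limma adjusted p = 0.0417). The F test among the 4 wild type groups did not call Tm6sf2 in the unweighted fit to all 36 arrays. It called Tm6sf2 without the arrays of poor GAPDH ratio (limma adjusted p = 0.0370), where 13.2% of all probe sets were called. With array weights it was called too (limma adjusted p = 0.0103), as were 6691 of 25941 probe sets.

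Sar1b, on 1428163_at, encodes the small GTPase that starts the COPII coat, and its loss in humans stops the export of chylomicrons from the gut. The Apob mice gave 25659, 16673, 21565 and 16259, the Pax3 mice 18834, 16737, 10761 and 13698, and the B6 mice 15972, 15949, 13896 and 21619. The differences were 0.42 ± 0.25 from Pax3 (limma adjusted p = 0.440) and 0.24 ± 0.25 from B6 (limma adjusted p = 0.774). Sar1b ran against the array-wide score within groups, with r = -0.810 and rho = -0.818 (permutation p = 1e-05 for each, adjusted p = 3.67e-05 and 2.75e-05). Its relation to Apob itself was not tested. In the Apob group the mouse of lowest Apob signal had the highest Sar1b signal. With the score as a covariate, the Sar1b difference was 0.14 ± 0.13 from Pax3 and 0.08 ± 0.13 from B6. Group means lay between 15008 ± 3529.8 in Pax3 and 29022 ± 15045 in CBA, where the highest signal, 50682, was on CBA replicate 4, and neighbours overlapped. CBA minus B6 was called without CBA replicate 1, which leaves CBA replicate 4 in, at 0.92 ± 0.25 (limma adjusted p = 0.0173). It was not called without the 2 arrays of poor GAPDH ratio.

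Sort1 encodes sortilin, a sorting receptor that binds apolipoprotein B in the Golgi, and was the other gene of the set with called differences. They were between stocks and not in Apob heterozygotes. On 1423362_at the Cd-WT mice gave 414, 379.8, 449 and 325, and the B6 mice 834, 894, 649 and 492. No Cd-WT mouse reached the lowest B6 mouse, and the difference was -0.81 ± 0.22 (limma adjusted p = 0.0312), or 1.75-fold lower. The call was lost without B6 replicates 1, 2 or 3 or Cd-WT replicates 1, 2 or 4, each left out in turn, at -0.84 to -0.69 (limma adjusted p of 0.0546 to 0.141). On 1450955_s_at the Cd-WT mice gave 99.9, 170.4, 136 and 79.7, and the B6 mice 276, 436, 308 and 162. Here 1 Cd-WT mouse exceeded the lowest B6 mouse, and the difference was -1.11 ± 0.22 (limma adjusted p = 0.00176), or 2.16-fold lower. The third probe set, 1423363_at, did not differ detectably, at 0.16 ± 0.34 (limma adjusted p = 0.897). Whether the Sort1 probe sets differ in this comparison was not tested. In Cd-WT against B6, 3 of the 10 probe sets were called lower, with Apob 1457554_at, where 3.97% of all probe sets were called and 9.08% did not overlap with the Cd-WT group lower. Of 6 endothelial markers, 2 were lower in Cd-WT mice than in B6 mice, and the median difference over the 6 was 0.12. Only Lyve1, a marker of liver sinusoidal endothelium, was called, lower at -1.35 (limma adjusted p = 0.0433), where 2.36% of all genes were called lower. The part of these markers in the results was not tested.

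Sort1 was as low in the mutant mice of the Lrp6Cd line. Cd-Het mice gave 379.5, 428, 319.6 and 329 on 1423362_at, and 164, 109, 109.6 and 90.6 on 1450955_s_at. They overlapped the Cd-WT mice on both, with differences of -0.10 ± 0.22 and -0.01 ± 0.22. An F test among the 4 wild type groups called 1423362_at (limma adjusted p = 0.0472) and 1450955_s_at (limma adjusted p = 0.000582) and not 1423363_at (limma adjusted p = 0.811). With the score as a covariate, Cd-WT minus B6 was -0.72 ± 0.18 on 1423362_at (limma adjusted p = 0.00898) and -1.08 ± 0.23 on 1450955_s_at (limma adjusted p = 0.00166).

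Ct mice had lower Sort1 than CBA mice on 1450955_s_at, the one Sort1 probe set called in this comparison. They gave 181, 153, 152 and 132, and the CBA mice 299, 308, 289 and 352, without overlap, for a difference of -0.92 ± 0.22 (limma adjusted p = 0.0129), where 3.57% of all probe sets did not overlap with the Ct group lower. Without CBA replicate 4 and Ct replicate 3 it was -0.86 ± 0.26 and was not called (limma adjusted p = 0.0899), where 1.72% of all probe sets were. On 1423362_at the difference was -0.23 ± 0.22, and -0.29 ± 0.23 without these arrays. On 1423363_at it was -0.19 ± 0.34 with all arrays. Without the 2 arrays it was -0.69 ± 0.36 (limma adjusted p = 0.433), with Ct mice at 201, 264 and 173 and CBA mice at 384, 306 and 367. Neither was called, and whether the 3 probe sets differ in this comparison was not tested. Lp-Het minus Lp-WT was -0.47 ± 0.22, -0.74 ± 0.34 and -0.33 ± 0.22 on 1423362_at, 1423363_at and 1450955_s_at, none of them called (smallest limma adjusted p = 0.738).

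Apob heterozygotes overlapped both comparison groups on every Sort1 probe set. They averaged 688 ± 174 on 1423362_at, against 593 ± 117 in Pax3 and 717 ± 183 in B6 mice. On 1423363_at they averaged 306 ± 47.0, against 244 ± 55.2 in Pax3 and 235 ± 44.2 in B6 mice. On 1450955_s_at they averaged 264 ± 55.4, against 228 ± 58.9 in Pax3 and 296 ± 113 in B6 mice (SD, n = 4 each).

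**Figure D5:**
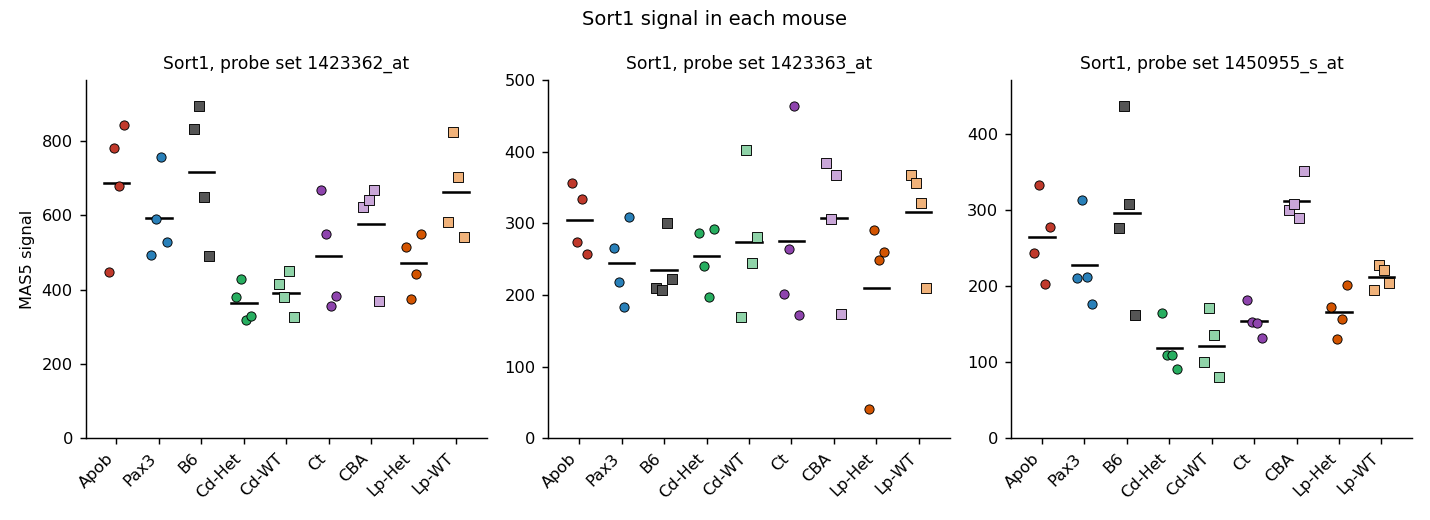
MAS5 signal of the 3 Sort1 probe sets in each mouse, by group, with circles for mutant groups, squares for wild type groups and a bar at the mean of 4 mice. Cd-Het and Cd-WT mice are low on 1423362_at and 1450955_s_at and not on 1423363_at, and Ct mice lie below CBA mice on 1450955_s_at.

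Other genes that act on apolipoprotein B were taken from 6 lists: partners of Apobec1 in editing, chaperones and degradation factors, suppliers of lipid, the COPII coat and its cargo receptors, receptors of lipoproteins, and transcriptional regulators. Of 63 listed genes, 56 were tested, with 1 probe set each. None was called in Apob heterozygotes against B6, where calls made up 0.265% of 12836 genes on the higher side and 0.366% on the lower side, and 8 of the listed genes had an unadjusted p below 0.05. None was called against Pax3 either (0.538% of all genes higher and 0.849% lower, and 4 listed genes at an unadjusted p below 0.05). Of all 25941 tested probe sets, 3163 had an unadjusted p below 0.05 against B6 and 3991 against Pax3. The median difference over the 56 genes was -0.06 against B6 and 0.04 against Pax3, beside 0.02 over all genes in each.

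The 2 genes of smallest p in each list are given as values. Mia2, a cargo receptor at the exit sites of the endoplasmic reticulum, had a signal of 433 ± 175 in Apob mice, against 164 ± 56.9 in Pax3 and 172 ± 107 in B6 mice (SD, n = 4 each). Its difference was 1.22 ± 0.41 from Pax3 (limma adjusted p = 0.125) and 1.29 ± 0.41 from B6 (limma adjusted p = 0.140). Vmp1, an endoplasmic reticulum protein needed for lipoprotein release, was at 0.51 ± 0.19 from B6 (limma adjusted p = 0.234). Creb3l3, a liver transcription factor of lipid genes, was at 0.45 ± 0.13 from Pax3 (limma adjusted p = 0.0745) and was called without the arrays of poor GAPDH ratio (limma adjusted p = 0.0233). Xbp1, a factor of the unfolded protein response, was at 0.59 ± 0.21 from Pax3 (limma adjusted p = 0.146). A1cf, which positions Apobec1 on Apob mRNA, was at 0.41 ± 0.30 from B6, and Rbm47, another editing cofactor, at -0.70 ± 0.37 from Pax3.

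The remaining genes of that kind spread in both directions. Against B6, Vcp, which extracts proteins for degradation, was at -0.54 ± 0.35, the chaperone Calr at -0.30 ± 0.22, the lipid droplet protein Plin2 at -0.40 ± 0.19 and the COPII adaptor Sec24b at -0.81 ± 0.38. Sdc1, a proteoglycan that takes up remnant lipoproteins, was at 0.46 ± 0.18, the receptor Lrp1 at -0.47 ± 0.48 and the transcription factor Foxo1 at -0.64 ± 0.33. Against Pax3, Aadac, a triglyceride lipase, was at 0.48 ± 0.19, Cideb, which binds lipid droplets and VLDL, at 0.26 ± 0.13 and Vldlr, the VLDL receptor, at -0.49 ± 0.39. None of these was called.

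With the array-wide score as a covariate, 2 listed genes were called higher and 1 lower against B6, and 3 higher against Pax3. That is 3 of 56 in each comparison, near the 5.97% and 5.1% of all probe sets called in this fit. Mia2 was at 1.47 ± 0.37 from B6 (limma adjusted p = 0.0167) and at 1.53 ± 0.39 from Pax3 (limma adjusted p = 0.0179). Surf4, a cargo receptor for apolipoprotein B, was at 0.42 ± 0.13 from B6, and P4hb, the small subunit of the transfer protein, at -0.41 ± 0.10 from B6. Creb3l3 was at 0.42 ± 0.11 and Xbp1 at 0.66 ± 0.19 from Pax3. Surf4 and P4hb are named because they were called in this fit, after their values were seen.

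Between Ct and CBA mice 5 of the 56 genes were called higher and 3 lower, beside 3.02% and 2.73% of all genes. Srebf1, the regulator of fatty acid synthesis, averaged 2773 ± 1575 in Ct mice, against 8431 ± 2172 in CBA mice (SD, n = 4 each), a difference of -1.81 ± 0.35 (limma adjusted p = 0.00147). Sdc1 was at -0.73 ± 0.18, and these 2 were the only called genes of the lists without CBA replicate 4 and Ct replicate 3. The other called genes were the chaperones Hspa5 and Calr, Pla2g12b, a protein of VLDL lipidation, Plin2 and Nr1h3, a nuclear receptor for oxysterols, all higher by 0.71 to 0.84, and the COPII adaptor Sec24a, at -0.95 ± 0.29. In the same comparison 5 of 8 Kupffer cell markers were called higher, with a summed signal of 12512 to 85505 in Ct mice, against 7337 to 16311 in CBA mice. Without the 2 arrays none of the 5 was called higher. Of 6 stellate cell markers, 4 were lower in Ct mice than in CBA mice, and the median difference over the 6 was -0.11. Only Dcn was called, higher at 1.11 ± 0.25 (limma adjusted p = 0.00735), and it was not called without the 2 arrays (0.57 ± 0.20, limma adjusted p = 0.160). Of 4 tested enterocyte markers, 2 were lower in Ct mice. The apolipoprotein Apoa4, listed among them, was called higher at 1.01 ± 0.21 (limma adjusted p = 0.00263) and without the 2 arrays at 1.13 ± 0.23 (limma adjusted p = 0.00336). The part of these markers in the differences was not tested.

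In the wild type stocks, A1cf stood out beside Apob 1457554_at and Sort1. It averaged 1384 ± 498 in Cd-WT mice, against 340 ± 77.6 in B6 mice (SD, n = 4 each), a difference of 1.90 ± 0.30. Sdc1 was called higher than in B6 in all 3 other wild type groups, by 0.83 ± 0.18 in Cd-WT, 0.69 ± 0.18 in CBA and 0.85 ± 0.18 in Lp-WT. The CBA call was lost without CBA replicate 4 and Ct replicate 3 (limma adjusted p = 0.0526). Sar1a, the paralogue of Sar1b, was called lower in CBA mice than in B6 mice, at -0.57 ± 0.17 (limma adjusted p = 0.0424), and was not called without those 2 arrays (-0.34 ± 0.15, limma adjusted p = 0.205). These 3 genes gave 2 calls higher in Cd-WT, 1 higher and 1 lower in CBA and 1 higher in Lp-WT. Over all genes, 1.54% were called higher in Cd-WT, 3.48% higher and 3.68% lower in CBA, and 1.03% higher in Lp-WT. Without CBA replicate 4 and Ct replicate 3, calls were gained as well. Of the 56 listed genes tested, 6 were then called higher in Cd-WT, beside 2.99% of all probe sets. In Lp-WT 3 were called higher and 1 lower, beside 2.41% and 2.45%. In CBA 0 were called higher and 1 lower, beside 2.43% and 2.77%. In CBA mice 5 of 8 Kupffer cell markers were called lower than in B6, with a median difference of -1.47, and 5 of 8 without the 2 arrays. In Lp-WT mice 0 of 8 were called with all arrays and 3 of 8 were called lower without the 2 arrays. Summed, these markers gave 7337 to 16311 in CBA mice, 14436 to 18597 in Lp-WT mice and 21456 to 31019 in B6 mice. Their part in the differences was not tested. These comparisons share the B6 mice.

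The genes most like Apob were sought by Pearson's r with 1455593_at, over log2 values with 1 probe set per gene. Over the 34 arrays they were Kif1b, a kinesin motor (0.869), F5, coagulation factor V (0.850), Ppara, the nuclear receptor of fatty acid oxidation (0.834), R3hdm2 (0.834) and Myh9, a non-muscle myosin (0.833). None of these was called in Apob heterozygotes: their differences from B6 ran between -1.08 for Ppara and -0.58 for R3hdm2. Over the 9 group means the leading genes were Dpysl2 (0.931), Tcf20 (0.924), Atp2b1, a plasma membrane calcium pump (0.920), Usp7, a ubiquitin protease (0.907), and Ddx42 (0.906). Of these, Tcf20 was called lower against B6, at -1.21 (limma adjusted p = 0.00282), and against Pax3, at -0.94 (limma adjusted p = 0.0152), and Atp2b1 against Pax3, at -1.50 (limma adjusted p = 0.0286). Over all genes, 0.366% were called lower against B6 and 0.849% against Pax3. These genes were picked because their group means follow those of Apob, which are lowest in Apob mice. Lower values in Apob mice are thus part of the choice, and the calls are no separate result.

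Over deviations from the group means, a measure added after the data were seen, the leading genes were Fn1, fibronectin (0.953), Lrp1, a receptor that clears remnant lipoproteins (0.940), Hnrnpa0 (0.939), F5 (0.936) and Foxn3 (0.907). The most opposite were Tbca, a tubulin folding cofactor (-0.921), Tmem126a (-0.917), the proteasome subunits Psma2 (-0.913) and Psma3 (-0.905), and Ndufs4, a subunit of respiratory complex I (-0.908). In all, 209 of 12835 genes had an r above 0.8 with Apob and 213 had one below -0.8. All genes of an array share its RNA and its scaling, so these values describe the arrays and carry no test.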

How the data were processed

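Liver RNA was measured on Affymetrix Mouse430 2.0 arrays. Per the labels' protocols, biotin-labelled cRNA was made from 3 µg of total RNA of a liver piece of about 0.5 cm3. The authors deposited linear signal intensity from MAS5 (per the submitters' processing notes, version not stated), and the values show that each array was scaled to a mean of 500 after trimming 2% at each end. MAS5 signal is noisy near background. Groups came from the labels. Symbols came from the platform table (34945 probe sets with 1 symbol, 932 with several, 9160 unnamed here), updated through Entrez IDs to RefSeq.

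Signals plus 23.1 (the 20th percentile) were taken to log2, and the 25941 probe sets with a mean above the 40th percentile were tested with limma 3.58.1 in R 4.3.3, with 1 mean per group, all 36 arrays, a variance trend, two-sided tests and Benjamini-Hochberg adjustment within a comparison. Single values were tested by exact permutation in SciPy 1.17.1. With 4 arrays per group, their number limits the precision. The code was tested on simulated data. The members and lists were chosen with earlier results of these data known. All 10 probe sets of the 6 genes are named. From the lists, genes called in the Apob comparisons and in Ct against CBA are named (at most 6 per list), with those called among wild types on all 36 arrays, or the 2 of smallest p as candidates where none was called, and the genes most like Apob are the 5 of highest r. Deviations of same-numbered mice from their group means correlated at -0.21 to 0.32. Numbers were therefore not used to pair samples, although these correlations cannot exclude a pairing. Alternatives were other normalizations, offsets and filters, no variance trend, array weights, compared arrays alone, 1 probe set per gene, no shared targets, a replicate block, and the removal of mice.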

Additional observations from a re-analysis of the deposited data

Results flagged for a closer look

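In 3 of 90 sets of 4 mice (10 probe sets in 9 groups, or 3.33%), 1 mouse stood far from the rest of its group by Dixon's criterion, where chance gives about 1 in 20. Mttp 1419399_at was at 3109 in Pax3 replicate 3, the lowest of its group. Sort1 1423362_at was at 369 in CBA replicate 4, the lowest of its group. Sort1 1423363_at was at 40.8 in Lp-Het replicate 1, the lowest of its group, against 249 to 290.2 in the other 3 Lp-Het mice.

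The effect of the Apob line on Apob minus the effect of the Pax3 line, with B6 as the control of both, was -1.89 on 1455593_at and -2.49 on 1457554_at. As the B6 mice cancel in this difference, it is the comparison of Apob with Pax3 heterozygotes, and its limma adjusted p were 0.0154 and 0.0203.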

How the results depend on the processing

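No called difference of a member changed sign under any alternative run. Without single mice, the Apob difference from B6 ran from -2.11 to -1.38 on 1455593_at and from -2.92 to -2.07 on 1457554_at, and the difference from Pax3 from -2.18 to -1.45 and from -2.76 to -2.13. Apob on 1455593_at was no longer called against B6 in 5 of 22 alternatives and against Pax3 in 2 of 22, and on 1457554_at in 6 of 21 and 5 of 21, all of them the removal of 1 mouse. Cd-WT minus B6 ran from -2.95 to -2.13 on Apob 1457554_at and from -0.97 to -0.69 on Sort1 1423362_at, where the call was lost in 6 of 21 alternatives. Ct minus CBA on Sort1 1450955_s_at was not called in the compared arrays alone (-0.92, limma adjusted p = 0.242), without the 2 arrays of high GAPDH ratio (-0.86) or with the array-wide score (-0.83). The difference between the Apob probe sets, Apob against Pax3, was 0.42 (exact permutation p = 0.0857) with a higher offset, 0.41 (exact permutation p = 0.143) after quantile normalization, and 0.51 to 0.68 without single mice, where 3 against 4 cannot reach a two-sided p under 0.05 here. The F test among wild types gave Sort1 1423362_at adjusted p of 0.0711 without the filter, 0.0543 without the variance trend and 0.0507 without shared targets. Among effects, Apob 1455593_at reached 0.0473 after quantile normalization, 0.00882 with array weights and 0.0323 without the 2 arrays, and Apob 1457554_at reached 0.0132 with array weights. The F test among effects called 2637 of 25941 probe sets with array weights and 4.01% without the 2 arrays. Calls were gained without single CBA mice for Mttp 1419400_at (-0.85), Tm6sf2 (1.09) and Sar1b (0.92), each with CBA replicate 4 left in. The F test among wild types called Tm6sf2 with array weights (adjusted p = 0.0103) and without the 2 arrays (0.0370). It called 6691 of 25941 probe sets with array weights and 13.2% without the 2 arrays. Lp-WT minus B6 on Apob 1457554_at was called with array weights (-1.54), as were 1970 of 25941 probe sets, and with the score (-1.05), as were 6.88%. With the replicate block, Apob minus B6 was -1.82 on 1455593_at (limma adjusted p = 0.0181), and the block changed no call of a member. The count of probe sets called over the whole array was 209 for Apob against B6, with 63 to 1548 over the alternatives, 479 for Apob against Pax3 (146 to 1974), 1259 for Ct against CBA (65 to 2092) and 1030 for Cd-WT against B6 (512 to 3771). The causes were not tested. Of the listed genes, all calls between Ct and CBA except Srebf1 and Sdc1 were lost without CBA replicate 4 and Ct replicate 3.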
